A study of Mus musculus with 16 samples.

Results

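The Myc, Max and Mxd network was taken as 10 genes: *Myc*, *Mycn*, *Mycl*, *Max*, *Mga*, *Mlx*, *Mnt*, *Mxd1*, *Mxd4* and *Mxi1*. Its members were the rows of the deposited expression table that carry these symbols, 10 of 30386 genes. The rule uses no measured value, but it was set with earlier results of these data known. The table holds 16 QuantSeq 3′ mRNA-seq libraries, 8 per group, in CPM, the reads of a gene per 1000000 reads of its sample. QuantSeq reads the 3′ ends of polyadenylated transcripts. The control samples were *GFP*-NSPCs, cultures of neural stem/progenitor cells (NSPCs) with a constitutive *GFP* transgene, and the others were *Dbx2*-NSPCs, the same kind of culture with a constitutive *Dbx2* transgene. *Dbx2* encodes a homeodomain transcription factor.

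Both groups came from the subventricular zone (SVZ) of C57BL/6 J/Babr mice aged 3 months. In both, the transgene sat on a pTP6 plasmid delivered by nucleofection, the lines were selected with puromycin, and cells were grown without adhesion in EGF and FGF2. The transgenic lines are therefore selected cultures, and the study used 2 independent pairs of them. The labels give the replicate number of each sample and not its line pair, so samples were also compared within the numbers 1 to 4 and 5 to 8. Whether these sets are the line pairs is not given in the labels. *Dbx2* itself ranged from 30.67 to 171.22 CPM in control samples and from 114.00 to 232.13 CPM in *Dbx2*-NSPCs. The groups overlapped over all numbers, and each *Dbx2*-NSPC sample was above the *GFP*-NSPC sample of the same number. In numbers 1 to 4 *GFP*-NSPCs were at 89.31 to 171.22 CPM and *Dbx2*-NSPCs at 135.99 to 232.13 CPM, with overlap. In numbers 5 to 8 they were at 30.67 to 39.48 CPM and at 114.00 to 155.22 CPM, without overlap. The sets thus differed in *Dbx2* itself, and its part in differences between them was not tested.

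Myc, N-Myc and L-Myc are basic helix-loop-helix leucine zipper proteins that bind the DNA sequence CACGTG, the E-box, as dimers with Max, and raise genes for ribosome production, metabolism and cell division. Mxd proteins, Mxi1, Mnt and Mga also pair with Max and mostly repress transcription at the same kind of site. Mlx is a Max-like protein that pairs with Mondo factors and some Mxd proteins. In neural progenitors, *Myc* and *Mycn* are best known for sustaining proliferation, and *Mxd* genes for their expression in cells that leave the cycle.

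The E-box is shown here in the 3 network genes that hold it upstream of their start, and in *Cdk4*, a well-known Myc-responsive gene that fell in *Dbx2*-NSPCs. Each line gives 30 bases in the direction of transcription, with the E-box in capitals.

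*Mlx*: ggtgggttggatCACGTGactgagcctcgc

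*Mnt*: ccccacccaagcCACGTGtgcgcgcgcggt

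*Mxd4*: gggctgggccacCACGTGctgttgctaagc

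*Cdk4*: aagtcaaggggtCACGTGggatagcaacag

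The sequences came from RefSeq promoter windows of the GRCm38.p6 build, which run from 250 bases before to 50 bases after a gene's start. The *Mlx* stretch lies at chr11:101087238-101087267 on the plus strand, the *Mnt* stretch at chr11:74830789-74830818 on the plus strand, the *Mxd4* stretch at chr5:34187912-34187941 on the minus strand and the *Cdk4* stretch at chr10:127063405-127063434 on the plus strand. In the order given, the motif began 40, 123, 219 and 118 bases before the start, and *Cdk4* held 4 E-boxes in the 250 upstream bases. CACGTG, which reads the same on both strands, occurred in the windows of 4 of the 9 members matched in the table, the other being *Max*, and in those of 11.9% of the 9631 tested genes with a window. *Myc* had no entry. TAATTA, a core homeodomain motif that also reads the same on both strands, occurred in 0 of the 9 members and in 3.04% of the tested genes. The 2 motifs cannot overlap within their 6 letters, and these matches describe the letters only.

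*Myc* lies at chr15:61985391-61990374, *Mycn* at chr12:12936093-12941914, *Mycl* at chr4:122995652-123002485, *Max* at chr12:76937269-76962201 and *Mlx* at chr11:101087277-101092207 (GRCm38, GENCODE vM21). Among the genes for repressive partners, *Mxd1* lies at chr6:86647042-86669161, *Mxd4* at chr5:34173883-34187720, *Mxi1* at chr19:53310518-53375810, *Mnt* at chr11:74830920-74845725 and *Mga* at chr2:119897228-119969581. The 3′ end of *Mlx* overlaps that of *Psmc3ip* on the opposite strand, which was itself measured at a mean of 13.8 CPM. Whether reads were counted by strand is not given in the sources used here, so *Mlx* values carry that uncertainty.

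The libraries held 1803928 to 3258885 counted reads in *GFP*-NSPCs and 2214008 to 3293285 in *Dbx2*-NSPCs. A count of 3 reads, taken as the floor of detection, equalled 0.911 to 1.66 CPM, and covers counting error only. *Dbx2*-NSPC replicate 4 had the lowest mean correlation with the other samples of its group and set (r = 0.9555, against 0.9599 to 0.9752 elsewhere). It also had the largest share of reads on *Gm42418*, 8.76%, against 5.43 to 8.4% elsewhere. Neither value was far from the next sample. Members that rest on this library are given with and without it below. The share of reads on mitochondrially encoded genes ranged from 3.19 to 6.96% in *GFP*-NSPCs (median 3.84%) and from 4.17 to 8.17% in *Dbx2*-NSPCs (median 6.60%), and was higher with *Dbx2* in 8 of 8 same-numbered pairs. Its part in the values that follow was not tested.

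NSPC markers were present in both groups. *Vim* averaged 2452 CPM, 11 of 12 NSPC markers passed the filter on low values, and *Prom1* stayed at or under 3 reads. The summed NSPC markers were at 8240 ± 826 CPM with the *GFP* and at 6947 ± 690 CPM with the *Dbx2* transgene (SD, n = 8), and 5 of them fell (*Pax6*, *Fabp7*, *Slc1a3*, *Egfr* and *Msi1*). Microglial markers were near 0, with sums of 0.398 and 0.619 CPM and 5 of 6 genes at the floor, and endothelial markers summed to 4.05 and 3.58 CPM. Pericyte and fibroblast markers summed to 0.841 and 1.35 CPM. Other neural markers moved with the transgene. The sum went from 1090 to 781.5 CPM for 8 neuronal markers, most of it *Map2*, the 1 gene called lower. Of the other neuronal markers, *Stmn2* was at 0.0 CPM, and *Dcx*, *Syt1* and *Snap25* had group means of 0.376 to 2.41 CPM. The sum went from 334 to 182 CPM for 5 mature astrocyte markers, most of it *Aldh1l1*, with *Gfap* higher and *Gja1* and *Aldh1l1* lower. It went from 80.5 to 141 CPM for 6 mature oligodendrocyte markers, mostly *Cnp*, with *Mog* and *Mag* at the floor, and from 16.6 to 31.1 CPM for 4 ependymal markers, mostly *Foxj1*. In bulk samples, fewer cells of a type and less RNA per cell cannot be told apart. The part of these shifts in the network values was not tested.

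The first question was whether any network gene differed between the 2 groups over all 16 samples. It was tested with limma on log2(CPM + 0.5) over the 12533 genes that exceeded 1 CPM in 4 or more samples, with Benjamini-Hochberg adjustment over all of them and a threshold of 0.05. Of the 10 members, 9 passed this filter, and 0 of the 9 were called. Over all genes 1982 were called, 15.8% of those tested, 1007 with higher and 975 with lower *Dbx2*-NSPC values. Before adjustment, limma at p under 0.05 also gave 0 members, against 29.2% of all tested genes. edgeR and DESeq2 on the recovered reads called 0 members as well. In no member did the 2 groups separate over all samples, while 3.41% of tested genes had groups that did not overlap.

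**Figure D1:**
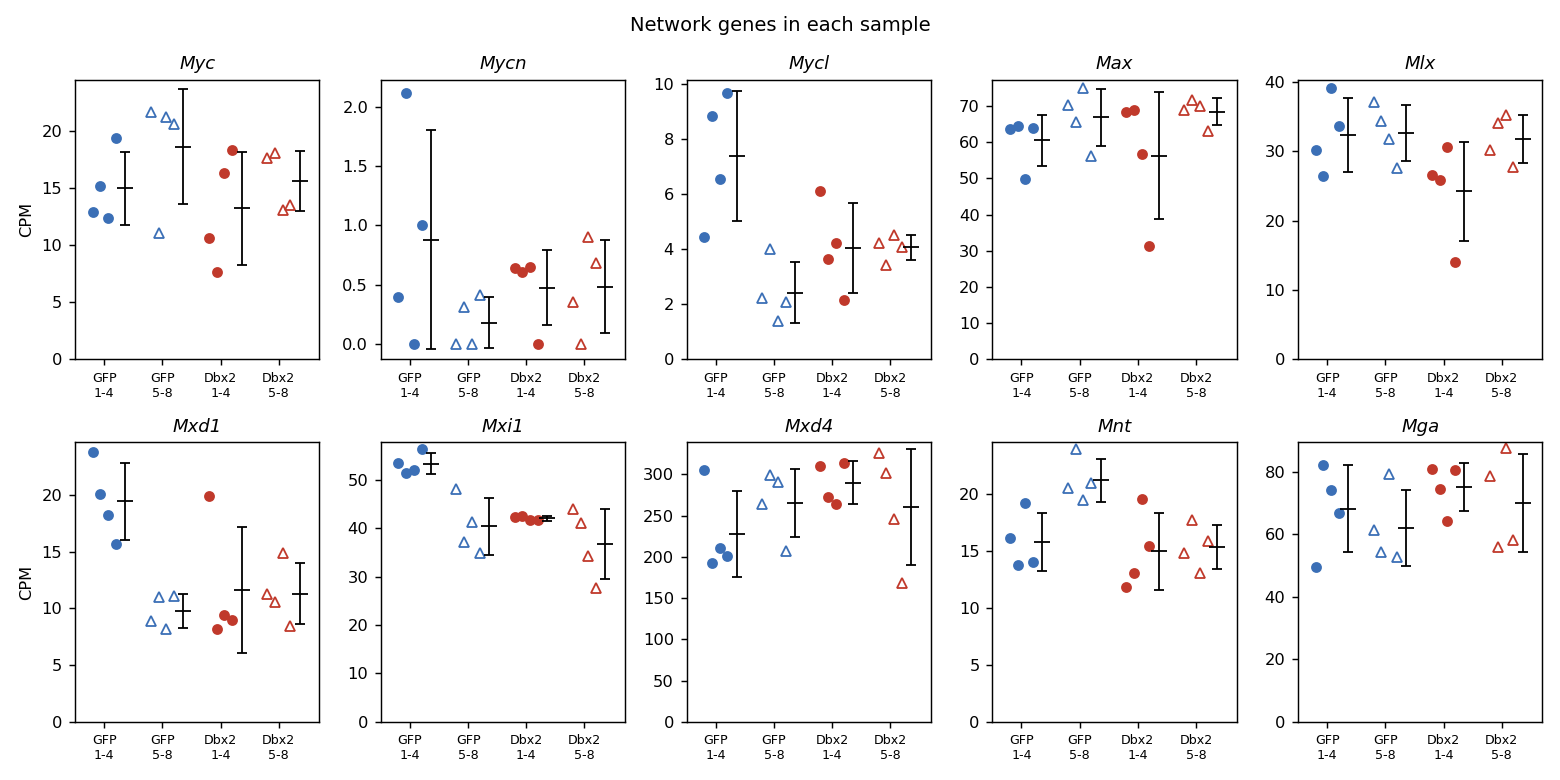
CPM of the 10 network genes in each of 16 samples, by transgene and replicate number (filled circles, numbers 1 to 4; open triangles, 5 to 8), with the mean and SD of each set beside the points (n = 4). The groups overlapped for every gene over all samples, *Mycn* stayed near 0, and *Mycl* and *Mxd1* had their highest set means in *GFP*-NSPCs numbered 1 to 4 (7.36 and 19.4 CPM).

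Of the activating members, *Myc* was measured in *GFP*-NSPCs at 12.89, 15.17, 12.38 and 19.33 CPM in the samples numbered 1 to 4 and at 21.61, 11.04, 21.17 and 20.56 CPM in those numbered 5 to 8. In *Dbx2*-NSPCs it was at 10.60, 7.59, 16.28 and 18.30 CPM and at 17.60, 18.02, 13.09 and 13.51 CPM. The *Dbx2*-NSPC values lay somewhat lower, in 6 of 8 same-numbered pairs, and the groups overlapped over most of their range. Means were 16.8 ± 4.37 and 14.4 ± 3.88 CPM (SD, n = 8). The log2 fold change was −0.22 ± 0.20 (SE), with limma adjusted p = 0.494 and an exact 2-sided permutation p = 0.29. Its 95% interval ran from a 0.642-fold to a 1.14-fold level and the samples held 25 to 62 reads of the gene each. The log2 fold changes were −0.23 ± 0.28 for numbers 1 to 4 and −0.22 ± 0.23 for 5 to 8. Without single libraries they ranged from −0.30 (without *GFP*-NSPC replicate 6) to −0.11 (without *Dbx2*-NSPC replicate 2) over all samples, from −0.41 (without *Dbx2*-NSPC replicate 4) to −0.003 (without *Dbx2*-NSPC replicate 2) in numbers 1 to 4, and from −0.44 (without *GFP*-NSPC replicate 6) to −0.13 (without *GFP*-NSPC replicate 5) in 5 to 8.

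*Mycn*, which encodes the Myc protein of embryonic neural progenitors, was nearly silent. It had 23 reads in all 16 libraries together, and was above 3 reads only in *GFP*-NSPC replicate 2, with 6 reads or 2.12 CPM. It failed the filter, and no fold is given because both groups were at or under the floor on average.

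*Mycl*, which encodes L-Myc, differed between the sets. In *GFP*-NSPCs it was at 4.43, 8.82, 6.52 and 9.66 CPM for numbers 1 to 4 and at 2.22, 3.99, 1.37 and 2.06 CPM for numbers 5 to 8. In *Dbx2*-NSPCs it was at 6.10, 3.64, 4.23 and 2.15 CPM, then at 4.22, 3.42, 4.51 and 4.05 CPM. The *GFP*-NSPC sets did not overlap, and the *Dbx2*-NSPC sets had the same mean, 4.03 and 4.05 CPM. Over all samples the log2 fold change was −0.05 ± 0.33 (adjusted p = 0.943), but it was −0.82 ± 0.35 in numbers 1 to 4 and 0.71 ± 0.33 in numbers 5 to 8, each with an adjusted p of 0.143 or 0.141. These values rest on 4 to 29 reads per sample.

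*Max*, the shared partner, had close medians in the 2 groups. In *GFP*-NSPCs it ranged from 49.85 to 75.13 CPM with a median of 64.26, and in *Dbx2*-NSPCs from 31.22 to 71.75 CPM with a median of 68.64. The lowest value belonged to *Dbx2*-NSPC replicate 4, and the next lowest of that group was 56.66 CPM. The log2 fold change was −0.06 ± 0.15 (adjusted p = 0.826, exact permutation p = 0.812), with an interval of 0.777-fold to 1.18-fold. Without that library it was 0.08 (adjusted p = 0.638). *Mlx* also had its lowest value in *Dbx2*-NSPC replicate 4, 13.99 CPM, where the other *Dbx2*-NSPC samples ranged from 25.80 to 35.21 CPM and *GFP*-NSPCs from 26.45 to 39.10 CPM. Its log2 fold change was −0.24 ± 0.16 (adjusted p = 0.322), and −0.11 without that library (adjusted p = 0.554).

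Among the repressive partners, *Mxi1* was at 53.58, 51.49, 52.13 and 56.32 CPM in *GFP*-NSPCs numbered 1 to 4, while *Dbx2*-NSPCs of those numbers were at 42.38, 42.49, 41.68 and 41.62 CPM. These groups did not overlap. In the samples numbered 5 to 8 it was at 48.21, 37.11, 41.32 and 34.96 CPM in *GFP*-NSPCs and at 44.00, 41.00, 34.31 and 27.69 CPM in *Dbx2*-NSPCs, with broad overlap. *Mxi1* was lower in *Dbx2*-NSPCs in 7 of 8 same-numbered pairs, with a log2 fold change of −0.24 ± 0.12 over all samples (adjusted p = 0.2, exact permutation p = 0.0605). An exact test over the 256 sign flips of the same-numbered differences, which keeps the pairs, gave p = 0.0234 before adjustment, and limma with the replicate block an adjusted p of 0.0711.

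*Mxd1*, a repressor of the Myc-antagonist family, was at 23.77, 20.10, 18.25 and 15.66 CPM in *GFP*-NSPCs numbered 1 to 4, against 19.91, 8.19, 9.44 and 8.97 CPM in *Dbx2*-NSPCs of the same numbers. Replicate 1 of *Dbx2*-NSPCs lay among the *GFP*-NSPC values and the other 3 far below. In the samples numbered 5 to 8 it was at 8.87, 11.04, 8.20 and 11.10 CPM in *GFP*-NSPCs and at 11.26, 10.56, 14.90 and 8.44 CPM in *Dbx2*-NSPCs. There the groups overlapped. Over all samples the log2 fold change was −0.31 ± 0.24 (adjusted p = 0.413). Leaving out 1 library moved it between −0.427 and −0.198, the latter without *GFP*-NSPC replicate 1.

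*Mnt*, a widely expressed repressive partner of Max, went from 18.5 ± 3.57 to 15.2 ± 2.56 CPM over all samples (SD, n = 8; log2 fold change −0.27 ± 0.15, adjusted p = 0.225, exact permutation p = 0.055). The sign flips of the same-numbered differences gave an exact p = 0.0469 before adjustment, and limma with the replicate block an adjusted p of 0.16. For the other 7 tested members the paired exact p lay between 0.0781 (*Mlx*) and 0.945 (*Max*). In the samples numbered 5 to 8 it was at 20.50, 23.92, 19.47 and 20.97 CPM in *GFP*-NSPCs and 14.78, 17.71, 13.09 and 15.87 CPM in *Dbx2*-NSPCs, which did not overlap. In numbers 1 to 4 it was at 16.11, 13.76, 19.22 and 14 CPM against 11.88, 13.05, 19.54 and 15.43 CPM, with overlap. The log2 fold changes were −0.46 and −0.09, and the test of their difference did not pass (−0.37 ± 0.27, adjusted p = 0.469).

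*Mxd4* and *Mga* were the members with higher means in *Dbx2*-NSPCs. *Mxd4* went from 247 ± 48.3 to 275 ± 51.4 CPM (log2 fold change 0.16 ± 0.14, adjusted p = 0.48), with 4 of 4 pairs higher in numbers 1 to 4 and 2 of 4 in numbers 5 to 8. Leaving out 1 library moved its log2 fold change over all samples between 0.11 and 0.255. *Mga*, a large scaffold that carries both a Max-binding domain and a T-box, went from 65.1 ± 12.6 to 72.7 ± 11.7 CPM (log2 fold change 0.16 ± 0.13, adjusted p = 0.417), higher in 6 of 8 pairs. For both, the groups overlapped through most of their range.

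**Figure D2:**
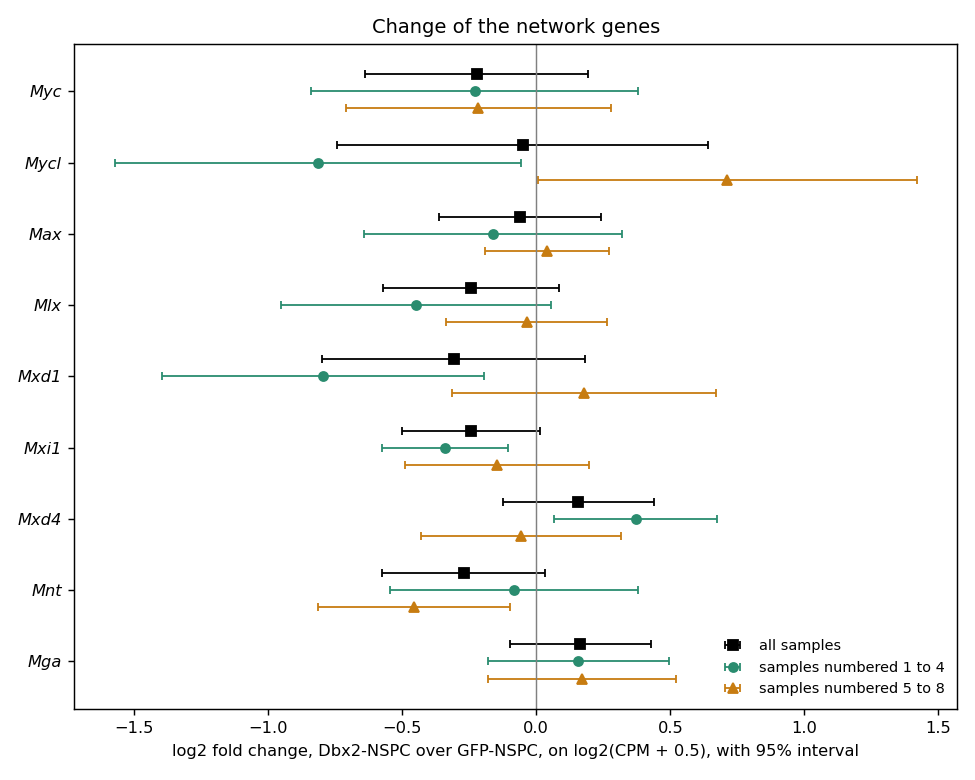
Log2 fold changes of 9 network genes, *Dbx2*-NSPC over *GFP*-NSPC, on log2(CPM + 0.5) with 95% intervals, for all samples (n = 8 per group) and for the samples numbered 1 to 4 and 5 to 8 (n = 4 per group). All 9 intervals over all samples include 0, and the sets point opposite ways for *Mycl*, from −0.82 to 0.71.

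Within the samples numbered 1 to 4, limma called 0 of 9 members, where 15.6% of tested genes were called, and 4 members had an unadjusted p under 0.05, where 29.0% of tested genes did. These were *Mxi1* (log2 fold change −0.34 ± 0.11, adjusted p = 0.0537), *Mxd1* (−0.80 ± 0.28, adjusted p = 0.0732), *Mxd4* (0.37 ± 0.14, adjusted p = 0.0968) and *Mycl*. *Mxi1* alone had groups that did not overlap, and 19.6% of all tested genes had such groups in this set. *Mxd1* passed the threshold when the replicate number was a block (adjusted p = 0.042) and without *Dbx2*-NSPC replicate 1 (−1.08, adjusted p = 0.00887). *Mxd4* passed it without *GFP*-NSPC replicate 1 (0.52, adjusted p = 0.00367).

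Within the samples numbered 5 to 8, 0 of 9 members were called, where 23.2% of tested genes were, and *Mycl* and *Mnt* had an unadjusted p under 0.05, against 34.8% of tested genes. *Mnt* had a log2 fold change of −0.46 (adjusted p = 0.0636), and was the 1 member without overlap, as were 24.8% of tested genes. edgeR and DESeq2 called 0 members in either set.

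Whether the change differed between the sets was tested by the interaction in limma. *Mycl* alone of the 9 members was called, where 9.44% of tested genes were, with a difference of 1.53 ± 0.49 on the log2 scale (adjusted p = 0.0472). The call was not held by edgeR (1.55, adjusted p = 0.0834), DESeq2 (1.57, adjusted p = 0.0811), a pseudocount of 0.1 (1.70, adjusted p = 0.0589) or the replicate block (adjusted p = 0.0807). Of the 16 fits that left out 1 library, it held without *GFP*-NSPC replicates 1 and 6 and *Dbx2*-NSPC replicate 1, and was lost without each of the other 13, with adjusted p up to 0.106. The difference for *Mxd1* was 0.97 (adjusted p = 0.0973), and 1.26 without *Dbx2*-NSPC replicate 1 (adjusted p = 0.0123).

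The same values can be read across the sets. Within *GFP*-NSPCs, *Mycl*, *Mxd1* and *Mxi1* were lower in the samples numbered 5 to 8, with log2 differences of −1.45 ± 0.35 (adjusted p = 0.00724), −0.95 ± 0.20 (adjusted p = 0.00338) and −0.41 ± 0.12 (adjusted p = 0.0238) in limma. This comparison was added after the values were seen, and 28.6% of tested genes were called in it. *Mnt* went the other way, from 15.8 to 21.2 CPM (adjusted p = 0.0818). Within *Dbx2*-NSPCs, 0 of 9 members were called between the sets, where 15.4% of tested genes were, with *Mxd1* at 11.6 and 11.3 CPM and *Mnt* at 15.0 and 15.4 CPM.

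Members varied together only in part, described by Pearson's r of log2(CPM + 0.5) over the 16 samples, which share library depth and sets. *Mycl* and *Mxd1* had r = 0.706, and 0.369 once the mean of each group and set was removed. *Max* and *Mlx* had r = 0.703, and −0.107 without *Dbx2*-NSPC replicate 4. *Mga* and *Mnt* ran opposite, at r = −0.591. Among the 8651 tested genes that averaged 10 CPM or more, those most like *Myc* were *Ap1g1* (0.822), *Sltm* (0.796) and the translation initiation scaffold *Eif4g1* (0.793). *Tm2d2*, *Cspg5* and *Pak3* were most like *Mycl* (0.848 to 0.884), *Spry2*, *Snrk* and *Naa30* most like *Mxd1* (0.856 to 0.885), and *Lgalsl*, *Midn* and *Cog8* most like *Mxi1* (0.868 to 0.873). *Ubxn8*, *Asf1a* and *Dapk3* were most like *Mnt* (0.854 to 0.876), *Mbnl2*, *1300002E11Rik* and *Ap3m2* most like *Mxd4* (0.787 to 0.796), and *Zfp629*, *Golga5* and *Dtx2* most like *Mga* (0.695 to 0.723). For *Max* these were *Tmem87a*, *Abhd16a* and *9530068E07Rik* (0.924 to 0.937), and for *Mlx* *Thap11*, *Abt1* and *Phc2* (0.852 to 0.881). Without *Dbx2*-NSPC replicate 4 the same genes had r of 0.658 to 0.711 with *Max* and 0.446 to 0.620 with *Mlx*.

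The members' chromosomal neighbours, the 10 nearest tested genes on each side, had median log2 fold changes between −0.12 beside *Max* and 0.19 beside *Mycn*. These windows spanned from 0.66 Mb around *Mlx* to 10.23 Mb around *Myc*, so many neighbours were far away. Beside *Myc* the median was −0.01, and 8 of the 20 neighbours were called, 2 higher and 6 lower, against 1 to 5 of 20 beside each of the other members and 15.8% of all tested genes. The tested gene nearest to *Myc*, *Pvt1* at 52.6 kb, was not called (0.25, limma adjusted p = 0.234). *Sgsm2*, 18.3 kb from *Mnt*, rose from 18.3 to 39.5 CPM (log2 fold change 1.10, limma adjusted p = 2.46e-05), while *Mnt* was not called. *Dusp5*, a phosphatase gene of the ERK pathway 218.6 kb from *Mxi1*, rose by 1.36 (adjusted p = 0.000443). Other neighbours called in both sets lay farther off, given here in kb, negative toward lower coordinates. Around *Myc* they were *Mtss1* (0.60, −3044.2 kb), *St3gal1* (−1.44, 5117.5 kb) and *Khdrbs3* (−0.74, 6943.0 kb). Around *Mycn* they were *Laptm4a* (0.55, −4014.4 kb), *Lpin1* (0.68, 3599.6 kb) and *Pqlc3* (1.98, 4052.6 kb). *Add2* (0.81, −618.4 kb) was in the window of *Mxd1* and *Sorcs1* (−0.99, −3167.2 kb) in that of *Mxi1*. *Tmem229b*, 2024.5 kb from *Max*, was called in opposite directions, −0.72 and 0.64.

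Genes that act with the network were read from lists, whose counts stand beside the 15.8% of all tested genes called and their median log2 fold change of −0.02. Counts within the sets stand beside 15.6% for numbers 1 to 4 and 23.2% for numbers 5 to 8. Of 7 further helix-loop-helix genes, inside and outside the network family, 5 were tested (*Mlxipl* and *Mycs* were not) and 1, *Usf2*, was called. A second, *Tfap4*, a basic helix-loop-helix factor gene, was at 7.74 and 4.94 CPM (−0.68, adjusted p = 0.0856) and was called lower with the replicate block (adjusted p = 0.0381; 21.7% of all tested genes called) and without *Dbx2*-NSPC replicate 2 (14.2%). *Usf2*, an E-box binding factor outside the Max dimers, rose from 300 ± 48.2 to 391 ± 39.8 CPM (SD, n = 8; log2 fold change 0.40, adjusted p = 0.0103). *Mxd3*, the Mxd gene of cycling progenitors, was at 21.0 and 19.8 CPM (−0.10, adjusted p = 0.763). The family gene *Mlxip* was at 5.62 and 6.34 CPM (0.07, adjusted p = 0.886).

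Of 19 Myc cofactors, 3 fell and 0 rose, 15.8% called, with a list median of −0.18. With the sample set as a covariate 6 fell, 31.6%, where 24.2% of all tested genes were called. Within the set numbered 1 to 4, 2 fell (10.5%), and within the other 4 fell (21.1%). *Smarcb1*, a SWI/SNF subunit, fell by 0.41 (adjusted p = 0.0136), and its change differed between sets, −0.08 and −0.74 (adjusted p = 0.00639). *Actl6a*, a subunit of TIP60 and SWI/SNF complexes, fell by 0.36 (adjusted p = 0.0266), a call lost without any 1 of 5 libraries, with adjusted p up to 0.0539. These were *GFP*-NSPC replicates 4 and 8 and *Dbx2*-NSPC replicates 1, 2 and 3. The list's count was 1 without *GFP*-NSPC replicate 4 or 8 or *Dbx2*-NSPC replicate 1 or 3, fits in which 13.6 to 14.8% of all tested genes were called. *Wdr5*, a histone methyltransferase subunit that binds Myc, fell by 0.45 at the threshold (adjusted p = 0.0497), a call lost with the replicate block (0.0529), edgeR (0.0665), DESeq2 (0.052), a pseudocount of 0.1 (0.0511), no filter on low values (0.0657), eBayes without trend (0.0655) and median-of-ratios scaling (0.0566). *Zbtb17*, which encodes the Myc partner Miz1 and was singled out after its values were seen, was not called over all samples (−0.32, adjusted p = 0.382) but changed differently in the sets. It was at 21.75, 15.17, 14.66 and 16.33 CPM in *GFP*-NSPCs and 24.40, 24.28, 27.68 and 21.89 CPM in *Dbx2*-NSPCs numbered 1 to 4, and at 25.49, 33.13, 26.98 and 27.14 CPM against 9.50, 15.53, 12.64 and 11.48 CPM in numbers 5 to 8. The *Dbx2*-NSPC samples were all higher in the first set and all lower in the second, a difference of −1.71 on the log2 scale (adjusted p = 4.8e-05).

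The Sin3 and histone deacetylase corepressors through which Mxd and Mnt proteins act were called in 1 of 16, with a median of −0.11. Among the samples numbered 5 to 8, 3 fell in limma (18.8%), and edgeR called 3 and DESeq2 1. Among those numbered 1 to 4 limma, edgeR and DESeq2 called 0. Of the 16, 2 had an unadjusted limma p under 0.05 there, as did 29.0% of all tested genes. The gene called over all samples was *Hdac2*, which went from 258.5 ± 62.4 to 168 ± 12.2 CPM (−0.58 ± 0.12, adjusted p = 0.00282). *Hdac2* was between 299.23 and 326.12 CPM in the *GFP*-NSPC samples numbered 5 to 8 and between 174.84 and 220.91 CPM in those numbered 1 to 4, and its change differed between sets, −0.26 and −0.91 (adjusted p = 0.00153). Of 14 partners of Mga in the PRC1.6 complex, 3 fell, *Hdac2*, *Wdr5* and the heterochromatin gene *Cbx1* (309 ± 19.9 to 266 ± 14.02 CPM, −0.22, adjusted p = 0.0197), whose groups did not overlap. The list median was −0.22, and edgeR with the set as a covariate called 4 lower and 1 higher, where 23.4% of all tested genes were called. Among the samples numbered 5 to 8, 4 of the 14 fell (28.6%). Among those numbered 1 to 4 limma, edgeR and DESeq2 called 0. Of the 14, 5 had an unadjusted limma p under 0.05 there, as did 29.0% of all tested genes. Whether the list differed between sets was not tested.

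Of 21 regulators of Myc protein turnover, 20 were tested and 2 fell, both of them F-box genes of ubiquitin ligases that target Myc. *Skp2* was at 27.39, 46.20, 43.99 and 46.32 CPM, then 41.00, 28.53, 30.39 and 25.09 CPM in *GFP*-NSPCs, and at 16.70, 17.91, 15.63 and 21.53 CPM, then 18.65, 22.05, 18.06 and 23.97 CPM in *Dbx2*-NSPCs. Every *Dbx2*-NSPC sample was below every *GFP*-NSPC sample, with a log2 fold change of −0.86 ± 0.15 (adjusted p = 0.000547). *Fbxw7* went from 120 ± 8.39 to 90.8 ± 15.98 CPM (−0.42 ± 0.10, adjusted p = 0.00631). With the replicate block or the set as a covariate 5 of the 20 fell, where 21.7 and 24.2% of all tested genes were called, and without *GFP*-NSPC replicate 1 the count was 4, where 17.6% were. Within the first set 3 of the 20 fell, and within the second 3 fell and 1 rose.

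Of 46 genes known to be raised by Myc, 45 were tested (*Tert* was not), and 6 fell and 1 rose, 15.6% called with a median of −0.11. With the sample set as a covariate 9 fell and 2 rose, 24.4%, beside 24.2% of all tested genes. *Cdk4*, the G1 kinase gene whose E-box is shown above, was at 219.16, 320.61, 418.70 and 337.24 CPM, then 277.06, 259.79, 261.26 and 241.81 CPM in *GFP*-NSPCs. In *Dbx2*-NSPCs it was at 144.48, 176.64, 175.19 and 167.56 CPM, then 148.89, 156.55, 181.94 and 163.08 CPM. The groups did not overlap (−0.80 ± 0.11, adjusted p = 4.31e-05). *Shmt2*, of mitochondrial one-carbon metabolism, fell from 132 ± 28.2 to 73.4 ± 6.01 CPM (−0.82 ± 0.11, adjusted p = 5.41e-05) and again did not overlap. *Pa2g4* fell by 0.51 (adjusted p = 0.00324), the mitochondrial DNA factor *Tfam* by 0.50 (adjusted p = 0.015), the phosphatase gene *Cdc25a* by 0.38 (adjusted p = 0.0238) and *Eif4e* by 0.26 (adjusted p = 0.0286). *Slc3a2*, of the amino acid transporter, rose by 0.51 (adjusted p = 0.0308), a call lost with eBayes without trend (0.054) and without any 1 of 7 libraries (up to 0.0623), *GFP*-NSPC replicates 3, 5, 6 and 8 and *Dbx2*-NSPC replicates 1, 2 and 6. The nucleolar genes *Ncl* and *Npm1* and the classical target *Odc1* were not called, at log2 fold changes of 0.04, 0.01 and 0.16. The E-box was found in 11 of the 40 genes of this list with a promoter window, 27.5%, in 4 of 14 genes lowered by Myc, 28.6%, and in 2 of 9 of the Mondo and Mlx arm, 22.2%, against 11.9% of tested genes.

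In numbers 1 to 4, 5 genes of this list rose and 3 fell, 17.8% called against 15.6% of all tested genes. In numbers 5 to 8, 4 rose and 15 fell, 42.2% called against 23.2% of all tested genes, of which 1444 rose and 1467 fell. The difference between sets was called for 7 of the 45, 15.6%, against 9.44%. Whether the list as a whole differed between sets was not tested. *Srm*, which makes spermidine, was at 107.97, 72.66, 76.57 and 68.65 CPM in *GFP*-NSPCs and 115.26, 124.44, 110.39 and 129.89 CPM in *Dbx2*-NSPCs numbered 1 to 4. In numbers 5 to 8 it was at 190.06, 144.16, 132.16 and 152.57 CPM against 63.36, 65.85, 64.56 and 82.05 CPM. The groups did not overlap in either set and their order was opposite (0.58 and −1.16, difference adjusted p = 5.53e-07). *Mrto4*, of ribosome assembly, went the same way (0.62 and −0.79, difference adjusted p = 0.000444), and the nucleolar helicase gene *Ddx21* was at 0.04 and −0.74 (adjusted p = 0.00136). These 3 genes were singled out after their values were seen.

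**Figure D3:**
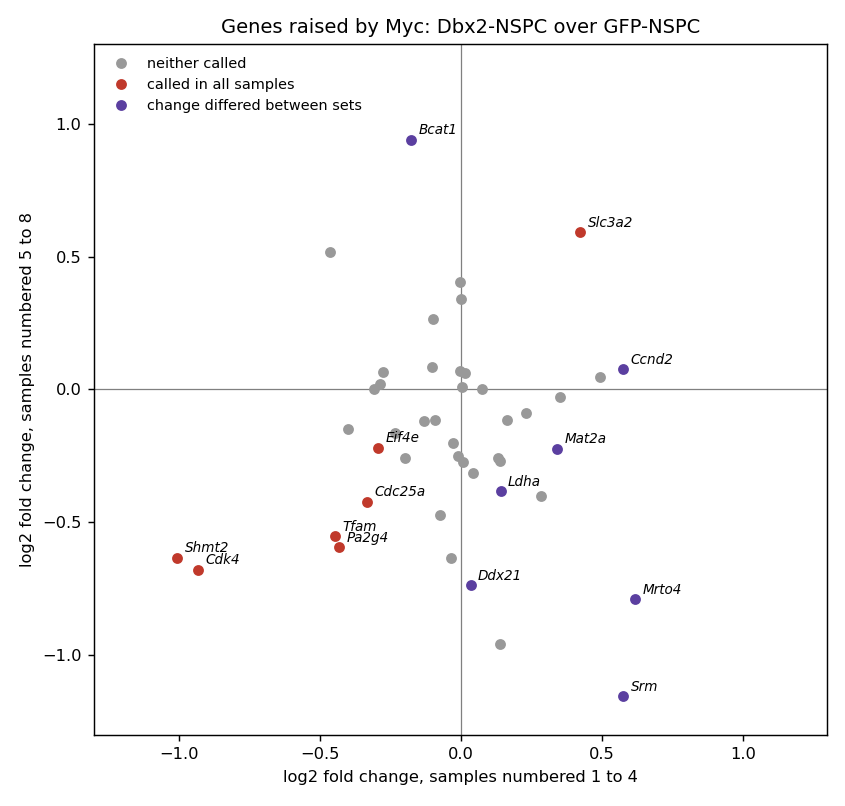
Log2 fold change, *Dbx2*-NSPC over *GFP*-NSPC, of 45 genes known to be raised by Myc, in the samples numbered 1 to 4 (x axis) and 5 to 8 (y axis), each point 1 gene and n = 4 per group. *Cdk4* and *Shmt2* lie low on both axes, and *Srm* and *Mrto4* lie at positive x and negative y.

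Of 16 genes known to be lowered by Myc, 13 were tested, and 3 rose and 1 fell, 30.8% called, with a median of 0.02. edgeR with the set as a covariate called 4 higher and 3 lower, where 23.4% of all tested genes were called. Within the first set 4 rose and 1 fell, and within the second 3 rose and 2 fell, 38.5% in each. *Klf4*, a growth-restraining transcription factor gene, was at 27.39, 11.64, 5.54 and 9.33 CPM, then 20.50, 24.84, 29.37 and 37.01 CPM in *GFP*-NSPCs, and at 59.08, 38.24, 51.45 and 56.69 CPM, then 37.66, 40.07, 40.63 and 49.97 CPM in *Dbx2*-NSPCs. All *Dbx2*-NSPC values lay above all *GFP*-NSPC values (1.36 ± 0.30, adjusted p = 0.00394), and the rise was larger in numbers 1 to 4 (2.10 against 0.61, difference adjusted p = 0.0175). *Gadd45g*, a stress-response gene, rose from 113 ± 37.1 to 241 ± 59.2 CPM (1.11 ± 0.19, adjusted p = 0.000358). *Cdkn1a*, the p21 gene, rose by 1.14 (adjusted p = 0.0178), with log2 fold changes of 1.70 among the samples numbered 1 to 4 and 0.57 among those numbered 5 to 8 (difference adjusted p = 0.0191). *Cdkn1b*, the p27 gene, fell by 0.44 (adjusted p = 0.0103). *Ndrg2*, singled out after its values were seen, had the largest gap between sets of this list, falling in numbers 1 to 4 (−2.04, adjusted p = 0.000104) with 1.39 in numbers 5 to 8 (adjusted p = 0.0567), where it was at 0.00 to 4.51 CPM in all 8 samples (difference adjusted p = 5.02e-05).

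**Figure D4:**
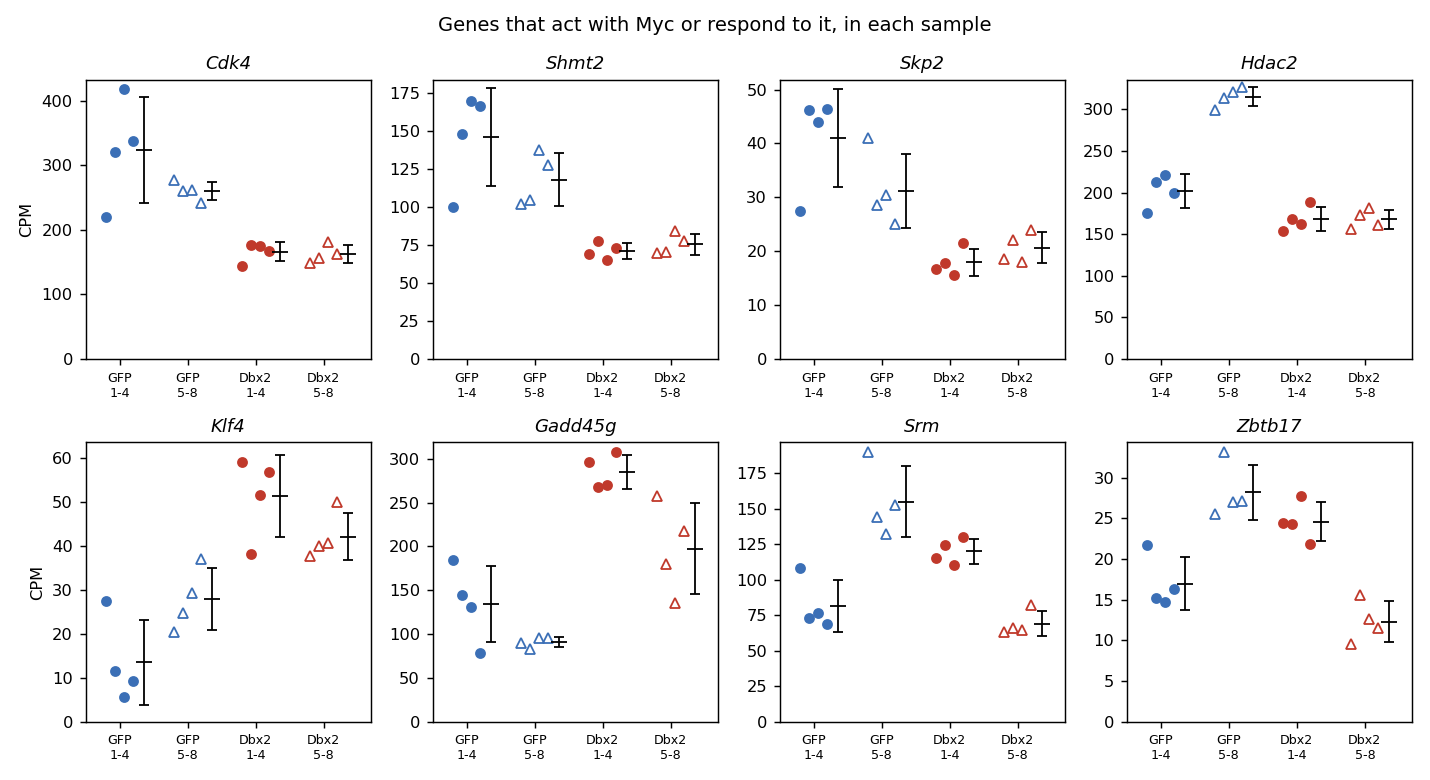
CPM in each of 16 samples for 8 genes that act with Myc or respond to it, by transgene and replicate number (filled circles, numbers 1 to 4; open triangles, 5 to 8), with the mean and SD of each set (n = 4). *Cdk4*, *Shmt2* and *Skp2* were lower and *Klf4* higher in every *Dbx2*-NSPC sample than in any *GFP*-NSPC sample, while *Srm* and *Zbtb17* changed order between the sets.

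Of 9 genes of the Mondo and Mlx arm, which responds to sugar supply, 8 were tested and 1 fell, *Acly*, of fatty acid synthesis (195 ± 30.1 to 126 ± 8.44 CPM, −0.62 ± 0.09, adjusted p = 9.61e-05), with no overlap. *Txnip*, its classical target, was at 4.39 and 2.002 CPM over all samples (−0.78, adjusted p = 0.318). It was called lower in numbers 1 to 4 (−1.54, adjusted p = 0.0164, and 0.0508 without *GFP*-NSPC replicate 3) and not in numbers 5 to 8 (−0.01, adjusted p = 0.992), and the difference between sets did not pass (1.53, adjusted p = 0.165). In each set 2 genes of the list fell in limma without a block (25.0%). With the replicate block 4 were called in numbers 1 to 4. In numbers 5 to 8 edgeR, DESeq2 and the block each called 3. The list median was −0.39. Over all samples, 3 genes of the list fell with the replicate block or the set as a covariate. In these fits 21.7 and 24.2% of all tested genes were called. The count was also 3 without *GFP*-NSPC replicate 1 (17.6%), and 2 without *GFP*-NSPC replicate 8 or *Dbx2*-NSPC replicate 4 or 6 (13.6 to 15.8%).

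Of 16 proliferation markers, 4 fell, *Ccna2* (77.7 ± 18.8 to 50.2 ± 14.3 CPM, −0.64, adjusted p = 0.0157), *Bub1* (−0.61, adjusted p = 0.00785), *Aurkb* (−0.66, adjusted p = 0.0363) and *Ccnb1* (−0.35, adjusted p = 0.0333). The call of *Aurkb* was lost in edgeR (adjusted p = 0.0695), DESeq2 (0.0522) and without the filter on low values (0.0558), and that of *Ccnb1* with eBayes without trend (0.053). The list median was −0.26. With the replicate block, which called 21.7% of all tested genes, 6 fell and 1 rose, and without *GFP*-NSPC replicate 3, 4, 6 or 7 the count was 2, where 13.6 to 14.1% of all tested genes were called. In numbers 1 to 4, 4 markers fell (25.0%, against 15.6% of all tested genes), and in numbers 5 to 8 1 fell and 1 rose (12.5%, against 23.2%; edgeR and the replicate block called 4). The one that rose was the survivin gene *Birc5* (0.58, adjusted p = 0.00782). It was at 0.10 in numbers 1 to 4, and limma without a block did not call the difference between sets (0.48, adjusted p = 0.226). With the replicate block that difference was called (adjusted p = 0.03). The cyclin gene *Ccnb2* fell in numbers 1 to 4 (−0.95, adjusted p = 0.0101), was at 0.45 in numbers 5 to 8 (adjusted p = 0.0517), and differed between sets (1.40, adjusted p = 0.000767). In numbers 5 to 8 it was called higher in edgeR (adjusted p = 0.038) and with median-of-ratios scaling (0.0406). It was also called there without *GFP*-NSPC replicate 6 (0.0318) or *Dbx2*-NSPC replicate 6 (0.0298). DESeq2 (0.0634) and the replicate block (0.0739) did not call it. *Birc5* and *Ccnb2* were singled out after their values were seen.

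The Hallmark set of Myc targets (V1) holds 200 genes, *Myc* among them, and all were tested. In all samples 33 fell and 0 rose, 16.5% called, with a median of −0.16 and 86.0% of the genes at negative values, against 52.7% of all tested genes. The study showed this set from these samples, so it is not independent evidence of a direction. With the replicate block 49 fell and 2 rose, 25.5% called, while over all tested genes 1364 fell and 1359 rose, 21.7% called. With the set as a covariate 53 fell and 2 rose, 27.5% against 24.2%. Without *Dbx2*-NSPC replicate 4 the counts were 31 and 0. In the samples numbered 1 to 4, 19 fell and 3 rose, 11% called against 15.6% of all tested genes, and in those numbered 5 to 8, 43 fell and 2 rose, 22.5% against 23.2%. By the naming rule the genes described are *Xpot*, which exports transfer RNA (72.8 ± 11.2 to 38.9 ± 8.30 CPM, −0.92, adjusted p = 0.00016), *Cdk2* (−0.83, adjusted p = 0.00774), *Cdk4*, *Cdc45* (−0.67, adjusted p = 0.0124), the chaperonin gene *Cct2* (348 ± 38.8 to 221 ± 27.8 CPM, −0.66, adjusted p = 6.25e-05) and *Ccna2*. The 46 genes also in the Hallmark E2F or G2M sets had 11 lower (23.9%, median −0.22; 17 without *Dbx2*-NSPC replicate 8, where 14.6% of all tested genes were called), among them *Mcm4* and *Mcm7*. The 154 genes outside them had 22 lower (14.3%, median −0.15), among them *Lsm7*, *Hdac2* and the chaperone gene *Ptges3*. CACGTG was found in 27 of the 175 genes of the set with a promoter window, 15.4%.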

How the data were processed

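Total RNA (100 ng) of each sample was made into QuantSeq 3′ libraries and sequenced single-end by the authors, who trimmed reads with bbduk, mapped them with STAR 2.5.0a to GRCm38 (Ensembl 96) and deposited 1 table of CPM, the reads of a gene per 1000000 reads of its sample. The counting tool and its strand setting are not given in the sources used here. In the deposited CPM all values (100.0%) were whole multiples of 1 read within 0.05 read, so reads per gene were recovered and used for edgeR 4.0.16 and DESeq2 1.42.0. Of 30386 genes, 12637 were at 0 in every sample.

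limma 3.58.1 (R 4.3.3; trend, 2-sided) was fitted to log2(CPM + 0.5) without covariates over genes that exceeded 1 CPM in 4 or more samples, and fold changes are on that scale, which understates those of low genes. The study used the cell line batch as a covariate, which the labels do not give, so the set of replicate numbers was tried in its place. Exact permutation tests used all 12870 assignments of the 16 samples, which ignore pairs and sets. The 256 sign flips of the paired differences were added after the values were seen. Labels call samples biological replicates without naming separate cultures. The study reports 4 independent experiments for each of its 2 line pairs, so each transgene rests on 2 lines. The p-values therefore measure the spread between these samples and not that between independent lines. Deviations from the group means correlated between all 8 same-numbered pairs (r 0.152 to 0.303, mean 0.226), and between different numbers of 1 set (0.199). By the rule that each pair exceeds 0.1 the numbers were taken to pair samples, although most of this is the set: within sets the mean was 0.04.

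Members and lists were chosen with earlier results of these data known. Named genes were all members, up to 6 called genes of each list with the largest change and at least 10 CPM in a group, the 3 genes most like each member, and neighbours called in both sets. *Mxd3*, *Mlxip*, *Tfap4*, *Zbtb17*, *Srm*, *Mrto4*, *Ddx21*, *Eif4e*, *Ncl*, *Npm1*, *Odc1*, *Ndrg2*, *Txnip*, *Birc5*, *Ccnb2* and *Pvt1* fall outside this rule and were chosen after their values were seen. The scripts were tested on simulated data. Promoter windows are RefSeq's.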

Additional observations from a re-analysis of the deposited data

Results flagged for a closer look

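Across 18 groups of 8 samples, 1 sample lay far from the rest in 2, where chance does so in about 1 of 20 groups. Both were *Dbx2*-NSPC replicate 4, at 31.22 CPM for *Max* (gap to the next sample 0.628 of the range) and 13.99 CPM for *Mlx* (0.557 of the range). This is the library with the lowest correlation to its group and set, and its part in these values was not tested. The log2 fold changes of *Mycl* in the samples numbered 1 to 4 and 5 to 8 differed by 1.53 (limma interaction, adjusted p = 0.0472). It was higher in 1 of 4 same-numbered pairs in the first set and in 3 of 4 in the second.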

How the results depend on the processing

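No member was called over all samples, or within the numbers 5 to 8, under any alternative run. Over all samples 1982 genes were called, 3034 (24.2% of those tested) with the sample set as a covariate, 2723 (21.7%) with the replicate block and 2938 (23.4%) in edgeR with the set as a covariate. In numbers 1 to 4 the members called went from 0 to 1 with a pseudocount of 0.1 (*Mxi1*, adjusted p = 0.0471) and with the replicate block (*Mxd1*), and ranged from 0 to 1 without single replicates, where genes called ranged from 1286 (without *GFP*-NSPC replicate 3) to 2209. Members whose change differed between sets went from 1 to 0 with a pseudocount of 0.1, edgeR, DESeq2 and the replicate block, and ranged from 0 to 2 without single replicates. Signs turned for uncalled values near 0. Without single replicates, *Mycl* ranged from −0.235 to 0.114 and *Max* from −0.109 to 0.075 over all samples, *Mnt* from −0.217 to 0.014 and *Max* from −0.279 to 0.097 in numbers 1 to 4, and *Mlx* from −0.114 to 0.028, *Mxd4* from −0.179 to 0.138 and *Max* from −0.039 to 0.098 in numbers 5 to 8. The set difference ranged from −0.214 to 0.191 for *Myc*, −0.102 to 0.158 for *Mga* and −0.057 to 0.319 for *Max*, and for *Myc* it was −0.001 with a pseudocount of 2, −0.048 in edgeR and −0.058 in DESeq2. The causes were not tested.

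With the set as a covariate, those called in all samples were 6 of the cofactors, 5 of the turnover regulators, 11 of the genes raised by Myc, 3 of the Mondo and Mlx arm, 55 of Hallmark V1, 38 outside and 17 inside the cycle sets. With the replicate block they were 2 of the further helix-loop-helix genes, 5 of the turnover regulators, 3 of the Mondo and Mlx arm, 7 proliferation markers and 51, 34 and 17 of the Hallmark sets. edgeR with the set as a covariate, added after seeing the data, called 5 cofactors, 5 PRC1.6 partners, 7 genes lowered by Myc and 3 of the Mondo and Mlx arm. Without single replicates counts ranged from 1 to 2 for the further helix-loop-helix genes, 1 to 3 for cofactors, 2 to 4 for turnover regulators, 1 to 3 for the Mondo and Mlx arm, 2 to 6 for proliferation markers and 8 to 17 for the Hallmark genes inside the cycle sets. *Wdr5*, *Aurkb*, *Ccnb1*, *Slc3a2* (eBayes without trend, adjusted p = 0.054) and *Mcm4* (edgeR, 0.0523) lost their call under some settings of the test. All 31 named list genes kept their direction under the 27 alternatives, and 24 stayed called in each. The others were *Actl6a* and 6 more. Among fits without 1 library, *Wdr5* stayed called only without *GFP*-NSPC replicate 3 or *Dbx2*-NSPC replicate 2 or 8. *Slc3a2* was lost without *GFP*-NSPC replicate 3, 5, 6 or 8 or *Dbx2*-NSPC replicate 1, 2 or 6 (adjusted p up to 0.0623), *Cdc25a* without *Dbx2*-NSPC replicate 3 (0.0503), *Aurkb* without *GFP*-NSPC replicate 2, 3, 4, 6 or 7 or *Dbx2*-NSPC replicate 1, 3, 4, 5 or 7 (up to 0.075), *Ccnb1* without *GFP*-NSPC replicate 3, 4, 6 or 7 or *Dbx2*-NSPC replicate 1 or 6 (up to 0.0636) and *Mcm4* without *GFP*-NSPC replicate 2, 4 or 6 or *Dbx2*-NSPC replicate 4, 5 or 7 (up to 0.0606). The set differences of *Srm*, *Mrto4*, *Zbtb17*, *Ddx21* and *Ndrg2* were called under every alternative run. The block changed no other call among the members in limma. Depth limited *Mycl* and *Mycn* most, at 4 to 29 and 0 to 6 reads per sample.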
